A study of Mus musculus with 2 samples.

Results

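The histamine system and the mast cell proteases were described in the mouse uterus through 10 genes, taken by symbol from the 22740 genes of the deposited expression table, and all 10 were found. Histidine decarboxylase (Hdc) makes histamine, Hnmt breaks it down, and Hrh1, Hrh2 and Hrh3 are receptors for it. Cpa3, Tpsb2, Mcpt4 and Cma1 encode proteases stored in mast cell granules, and Ms4a2 encodes the beta chain of the high-affinity IgE receptor. The samples were whole uteri of 2 C57BL/6 mice on day 4 of pregnancy, with 1 RNA sequencing library for each animal (uterus 1 is titled WT1 and uterus 2 WT2). Both belong to 1 group with no treatment and no genetic change named, and the age of the mice is not given in the sources used here. The question was whether the level of Hdc was matched by the genes of mast cells.

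Histamine is made from the amino acid histidine in a single step by histidine decarboxylase. Mast cells store it in granules, bound to the proteoglycan serglycin together with tryptases, chymases and carboxypeptidase A3, and release it when the IgE receptor is cross-linked. Granule proteases are among the most abundant transcripts of mature mast cells. In the mouse uterus, Hdc is also known as a gene of the epithelium that progesterone raises around the time of implantation. Released histamine acts through receptors coupled to different G proteins: H1 to Gq, H2 to Gs, and H3 and H4 to Gi.

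Levels are the authors' RPKM, reads scaled to the length of a transcript and to the size of the library, so that levels of different genes can be compared. Whole reads behind the RPKM were estimated, called recovered reads here, and summed to 3877588 in uterus 1 and 4307880 in uterus 2. Both sums exceed the scaling totals implied by the RPKM, 3834174 and 4256101, and the reason for this excess was not tested. Reads of some genes can be too high. Intervals given with a level or a ratio are 95% intervals that cover counting error only. They leave out variation between animals and in library preparation. Copies made by PCR are not independent molecules, so even the counting error can be larger than the intervals show. In whole tissue, fewer cells of a type and less RNA per cell cannot be told apart. A value of 0 is given as listed at 0 and is not read as absence, because Rpl26, a ribosomal protein gene that cells in general use, and 4 globin genes of red blood cells (among them Hba-a1) had the same entry in both uteri.

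Hdc was the highest of the 10 genes by a wide margin. Of these, 6 were detected, meaning at least 1 RPKM in both uteri, against 58.4% of all genes in the table. The 4 proteases and Hnmt formed a group between 3.36 and 7.999 RPKM, and the receptors and Ms4a2 lay below 1 RPKM in both uteri. The plot of the members' levels shows these 3 tiers, and no value of a lower tier reached a value of the tier above.

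**Figure D1:**
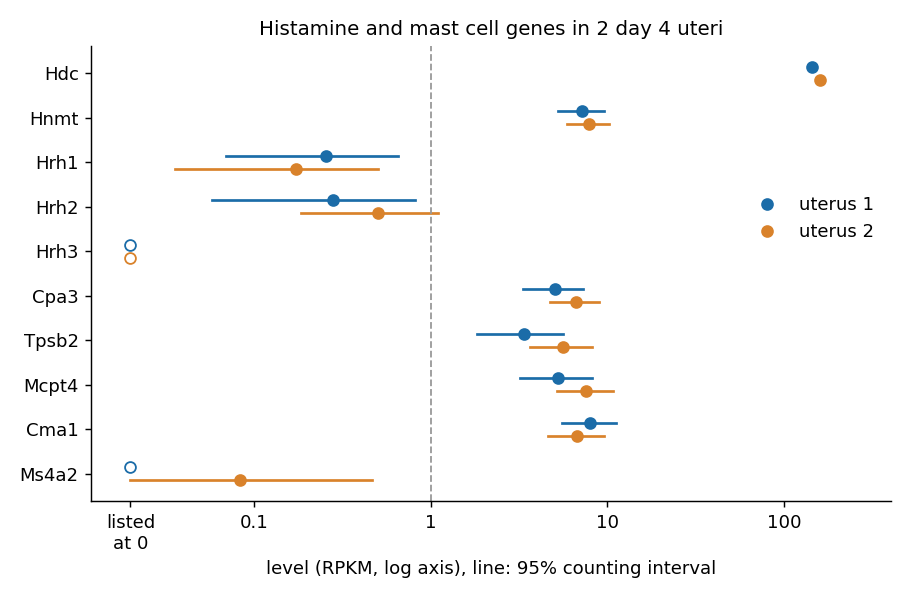
Level of the 10 genes in each uterus (RPKM, log axis). Points are the 2 libraries, lines are 95% counting intervals, open circles mark values listed at 0, and the dashed line is 1 RPKM. Hdc sits at 144.2 and 160.5 RPKM, and the 4 proteases between 3.36 and 7.999 RPKM.

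Hdc (NM_008230) lies on the minus strand of chromosome 2, from 126419404 to 126444401 in build mm9. Its level was 144.2 RPKM in uterus 1 (136.5 to 152.2) and 160.5 RPKM in uterus 2 (152.7 to 168.5), a mean of 152.3 ± 11.5 (SD, n = 2). These values rest on 1315 and 1624 reads over 2378 bases, so they are the most firmly measured of the 10. Of the 22740 genes, 272 had a higher mean, which places Hdc at rank 273 and above 98.8% of the table. The 3 genes next above it were Cct2, a chaperonin subunit, at 154.0 RPKM, Eif4a2, a translation initiation factor, at 153.4 RPKM, and the splicing factor Srsf5 at 153.1 RPKM. Next below came Vcp, a protein-unfolding ATPase, at 152.0 RPKM, the lysosomal protease Ctsb at 151.7 RPKM and the smooth muscle gene Cnn1 at 151.5 RPKM. The means of Hdc and these 6 neighbours differ by less than the SD of Hdc, so their order is not resolved.

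Hnmt (NM_080462, chromosome 2, 23858432 to 23904899), the methyltransferase that inactivates histamine inside cells, had 7.16 RPKM from 45 reads in uterus 1 and 7.88 RPKM from 55 reads in uterus 2. Hdc exceeded it 20.1-fold in uterus 1 (15.0 to 27.8) and 20.4-fold in uterus 2 (15.6 to 27.1). Aoc1, diamine oxidase, which degrades histamine outside cells, is listed in the table under its older symbol Abp1. It lay at 0.726 and 1.23 RPKM on 8 and 15 reads, so it passed 1 RPKM in uterus 2 but not in uterus 1.

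The other genes of histamine handling were taken from a list of 10 genes for synthesis, storage, transport and breakdown, of which 6 were detected, Hdc and Hnmt included (60.0%, near the 58.4% of all genes). Slc18a2, the transporter that loads histamine and other amines into vesicles, lay at 2.06 and 3.09 RPKM on 30 and 50 reads. Slc22a3, a plasma membrane carrier of histamine, lay at 2.83 and 2.15 RPKM on 38 and 32 reads, while the related carriers Slc22a2 and Slc29a4 stayed below 0.6 RPKM. A pair of oxidising enzymes that act on histamine products but also on many other substrates were high. Maob lay at 93.6 and 114.3 RPKM, and Aldh2 at 119.0 and 121.0 RPKM. Hal, which diverts histidine away from histamine, lay at 0.0946 and 1.02 RPKM on 2 and 24 reads.

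The other genes of the amino acid decarboxylase list lay below the level of Hdc. Of the 8 genes listed, Hdc included, 4 were detected, beside 58.4% of all genes. Among the detected, Adc (Azin2) lay at 3.27 and 2.70 RPKM, and whether its product is an active decarboxylase was not tested. Ddc, which makes dopamine and serotonin and is related to Hdc in sequence, lay at 0.125 RPKM in uterus 1, on 1 read, and was listed at 0 in uterus 2. Gad1 and Gad2, which make GABA, stayed below 0.19 RPKM, and Gadl1 was listed at 0 in both. Csad, an enzyme of taurine synthesis, lay at 18.8 and 20.1 RPKM. Odc1, which opens polyamine synthesis, came closest to Hdc at 66.3 and 60.2 RPKM.

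None of the 4 histamine receptor genes reached 1 RPKM in both uteri, as 58.4% of all genes did, and 2 of them had values listed at 0. Hrh1 (NM_001252642, chromosome 6, 114353660 to 114433290), the H1 receptor, had 0.256 RPKM from 4 reads in uterus 1 and 0.173 RPKM from 3 reads in uterus 2. Hrh2 (NM_008286, chromosome 13, 54287498 to 54310452), the H2 receptor, lay at 0.2801 and 0.505 RPKM on 3 and 6 reads. With the smallest reads compatible with its deposited values, Hrh2 would rest on 1 and 2 reads and would fall below the minimum for the test between libraries. The intervals of Hrh1 and Hrh2 overlap in both uteri, and their difference was not tested. Hrh3 (NM_133849, chromosome 2, 179834178 to 179838927), a receptor best known from neurons, was listed at 0 in both uteri. Hrh4, a receptor of blood cells that is not among the 10, was listed at 0 in uterus 1 and lay at 0.153 RPKM in uterus 2 on 1 read.

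The G proteins and phospholipases to which these receptors couple also serve many other receptors. All 10 genes of this list were detected, beside 58.4% of all genes. Gnas, the Gs alpha subunit, lay at 111.1 and 110.6 RPKM, and Gnaq, the Gq alpha subunit, at 23.0 and 21.9 RPKM. Gnai2 was the highest of the 3 Gi alpha genes at 123.4 and 117.7 RPKM. Plcb3 was the highest phospholipase at 23.3 and 24.4 RPKM, and Plcb2 the lowest at 2.03 and 3.11 RPKM.

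Cpa3, Tpsb2, Mcpt4 and Cma1 lay close to each other and far below Hdc. Cpa3 (NM_007753, chromosome 3, 20115515 to 20142080), carboxypeptidase A3, lay at 5.03 RPKM in uterus 1 (3.34 to 7.26) and 6.63 RPKM in uterus 2 (4.76 to 8.99) on 28 and 41 reads. Cma1 (NM_010780, chromosome 14, 56560288 to 56563498), a chymase also called mast cell protease 5, lay at 7.999 RPKM (5.51 to 11.2) and 6.77 RPKM (4.599 to 9.61) on 33 and 31 reads. Cpa3 was higher in uterus 2 and Cma1 in uterus 1, and each value lay within the counting interval of the same gene in the other library.

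Mcpt4 (NM_010779, chromosome 14, 56678581 to 56681147), a chymase of connective tissue mast cells, lay at 5.27 RPKM (3.22 to 8.14) and 7.59 RPKM (5.20 to 10.7) on 20 and 32 reads. Tpsb2 (NM_010781, chromosome 17, 25503278 to 25505037), a tryptase also called mast cell protease 6, lay at 3.36 RPKM (1.84 to 5.63) and 5.61 RPKM (3.67 to 8.23) on 14 and 26 reads. The means of the 4 proteases ran from 4.49 RPKM for Tpsb2 to 7.38 RPKM for Cma1, a 1.65-fold range. The mean of Hnmt, 7.52 RPKM, lay just above that of Cma1. Cma1 and Hnmt lay above Tpsb2 in both uteri, whereas Cma1 and Mcpt4 changed places between the uteri, and differences between these genes were not tested.

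Ms4a2 (NM_001276328, chromosome 19, 11690011 to 11698209) was listed at 0 in uterus 1 and lay at 0.0835 RPKM in uterus 2 on 1 read. Fcer1a, which encodes the IgE-binding chain of the same receptor, lay at 0.254 and 0.229 RPKM on 1 read in each. Fcer1g, the signalling chain that other receptors of macrophages and natural killer cells also use, lay at 17.0 and 24.6 RPKM. The chains that define the IgE receptor were thus at or near the level of a single read, whereas the shared chain was not.

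Beside the protease genes, Hdc stood 1 order of magnitude or more higher in each uterus. The ratio of the Hdc level to the Cma1 level was 18.0 in uterus 1 (12.8 to 26.3) and 23.7 in uterus 2 (lower bound 16.6). For Mcpt4 the ratio was 27.4 (17.7 to 45.0) and 21.1 (14.9 to 31.0), and for Cpa3 it was 28.7 (19.8 to 43.4) and 24.2 (17.8 to 33.9). For Tpsb2 it was 43.0 (25.5 to 78.8) and 28.6 (19.4 to 43.9). No interval reached 1, the value for equal levels, in any of these 8 comparisons. These ratios of deposited levels do not depend on the recovered reads, but their intervals do. Dividing the smallest reads compatible with the deposited values by the annotated length gave a mean ratio of 70.7 for Tpsb2 and 48.2 for Mcpt4. Those values are not ratios of the deposited levels. The RPKM of the 4 proteases summed to 21.7 in uterus 1 and 26.6 in uterus 2, which is 15.0% and 16.6% of the Hdc level. Hdc was 6.35 ± 0.446 times the sum (SD, n = 2), and 5.97 times the sum of all 11 granule proteases of the list.

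**Figure D2:**
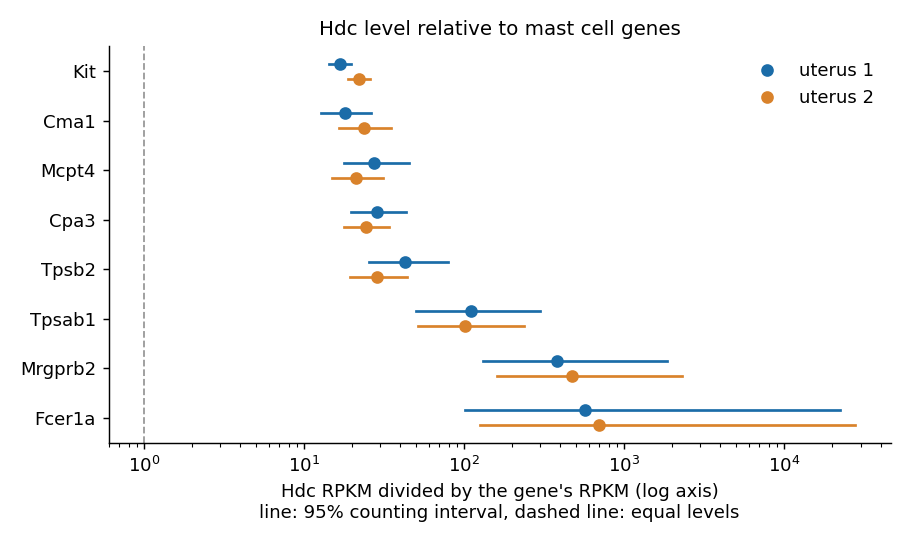
Hdc level divided by the level of each of 8 mast cell genes in each uterus (ratio of RPKM, log axis). Points are the 2 libraries, lines are 95% counting intervals and the dashed line marks equal levels. The lowest ratio is 16.8, for Kit in uterus 1, and the intervals widen toward Fcer1a, which held 1 read in each library.

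Kit, the receptor for stem cell factor that mast cells need and that other cells also carry, lay at 8.61 and 7.30 RPKM on 171 and 161 reads, which gives Hdc ratios of 16.8 and 22.0. Its ligand Kitl lay at 14.0 and 14.7 RPKM. Of the 16 genes of mast cell growth and identity, 10 were detected (62.5%, near the 58.4% of all genes). The highest were Srgn, serglycin, at 102.0 and 110.2 RPKM, and the transcription factor Gata2, at 39.2 and 38.5 RPKM. Both are also expressed by other cells, Srgn by leukocytes and endothelium and Gata2 by uterine stroma and endothelium. The more restricted Mrgprb2, a receptor of connective tissue mast cells, lay at 0.377 and 0.3395 RPKM on 3 reads in each, and the related Mrgprb1 at 0.125 and 0.842 RPKM on 2 and 15 reads. Hpgds, a prostaglandin D2 synthase of mast cells and macrophages, lay at 4.82 and 4.27 RPKM.

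Of the 10 genes of the mast cell marker list, 6 were detected (60.0%, beside 58.4% of all genes, so the share was near the background). All 10 summed to 32.3 RPKM in uterus 1 and 37.0 RPKM in uterus 2. The list's median was 2.34 and 3.60 RPKM, beside 3.28 and 3.23 RPKM over all genes. Ms4a2, Fcer1a and Mrgprb2 held 3 reads or fewer in each library, Mrgprb1 held 2 and 15, Tpsab1 6 and 8, and the 4 proteases and Kit between 14 and 171. These mast cell genes were measured in the same whole tissue as Hdc, and how much of the Hdc level mast cells gave was not tested. None of the 10 reached the level of Hdc.

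Markers of other cells that could hold histamine were set beside Hdc in the same way. The counts of detected genes in these lists stand beside 58.4% of all genes. Of the 5 basophil genes, none was detected: Mcpt8 and Prss34, 2 proteases of basophils, were listed at 0 in both uteri, and the highest, Il4, lay at 0.309 and 0.836 RPKM on 1 and 3 reads. Of 8 neutrophil genes, 3 were detected (37.5%), with Cxcr2 highest at 4.71 and 4.401 RPKM, while Elane, Camp and Ngp were listed at 0. Of the 5 eosinophil genes, 2 were detected, and all 5 summed to 4.93 and 5.73 RPKM. All 6 macrophage genes were detected, with a list median of 21.4 and 24.7 RPKM, and Lyz2 exceeded Hdc at 217.9 and 235.8 RPKM.

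The epithelium list had a median of 26.4 and 33.5 RPKM, and none of its 9 genes reached Hdc. Cldn3, a tight junction gene, came closest at 125.8 and 116.6 RPKM, and Krt18 lay at 70.4 and 94.3 RPKM. In the stroma list 4 of 6 genes exceeded Hdc, and in the smooth muscle list 4 of 5. Levels in whole tissue do not assign Hdc to a cell type, and the part of each cell type in its level was not tested.

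**Figure D3:**
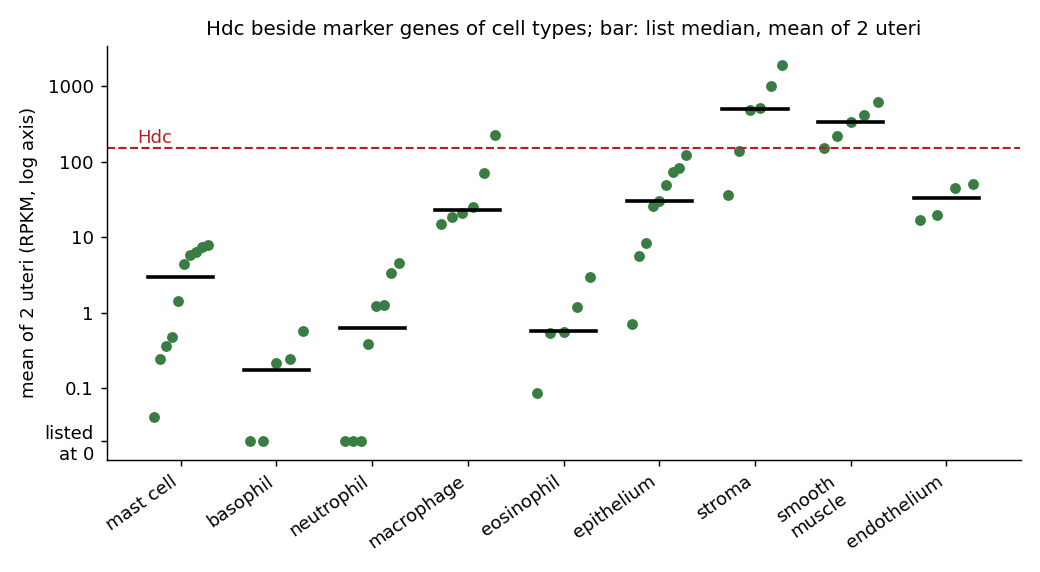
Mean level of each marker gene of 9 cell types (RPKM, log axis, mean of the 2 uteri). Points are genes, black bars are list medians averaged over the 2 uteri and the dashed line is Hdc at 152.3 RPKM. All 10 mast cell markers lie below 9 RPKM, whereas 4 of 6 stroma and 4 of 5 smooth muscle markers lie above Hdc.

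The level of Hdc was also set beside 9 genes that ovarian hormones regulate in the uterus around implantation, most of them through progesterone and Ltf and Lif mainly through estrogen. All 9 were detected, beside 58.4% of all genes, and each had a mean below that of Hdc. Pgr, the progesterone receptor, lay at 77.5 and 66.4 RPKM. Irg1, an epithelial gene of itaconate synthesis, lay at 71.0 and 74.5 RPKM, and the ratio of Hdc to it was 2.03 (1.85 to 2.23) and 2.15 (1.98 to 2.34). Hoxa10, a stromal transcription factor, lay at 112.1 and 115.5 RPKM, with ratios of 1.29 (1.19 to 1.39) and 1.39 (1.295 to 1.49). The epithelial signal Ihh lay at 7.58 and 10.4 RPKM, and the cytokine Lif at 3.16 and 3.90 RPKM.

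Chymase and tryptase genes sit in clusters, and within each cluster only some genes had reads. The chymase cluster, from Cma1 to the granzyme gene Gzmb, spans 320.8 kilobases of chromosome 14 (56560288 to 56881097 in mm9) and holds 17 genes of the table. Cma1 stands at one end and Mcpt4 lies 118.0 kilobases away. Between them, Cma2, Mcpt1, Mcpt9 and Mcpt2 were listed at 0 in both uteri. Mcpt1 and Mcpt2 are chymases of mucosal mast cells, and Mcpt9 was described from mast cells of the uterus. The pseudogene Mcpt-ps1 was listed at 0 in uterus 1 and lay at 0.889 RPKM in uterus 2 on 3 reads.

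**Figure D4:**
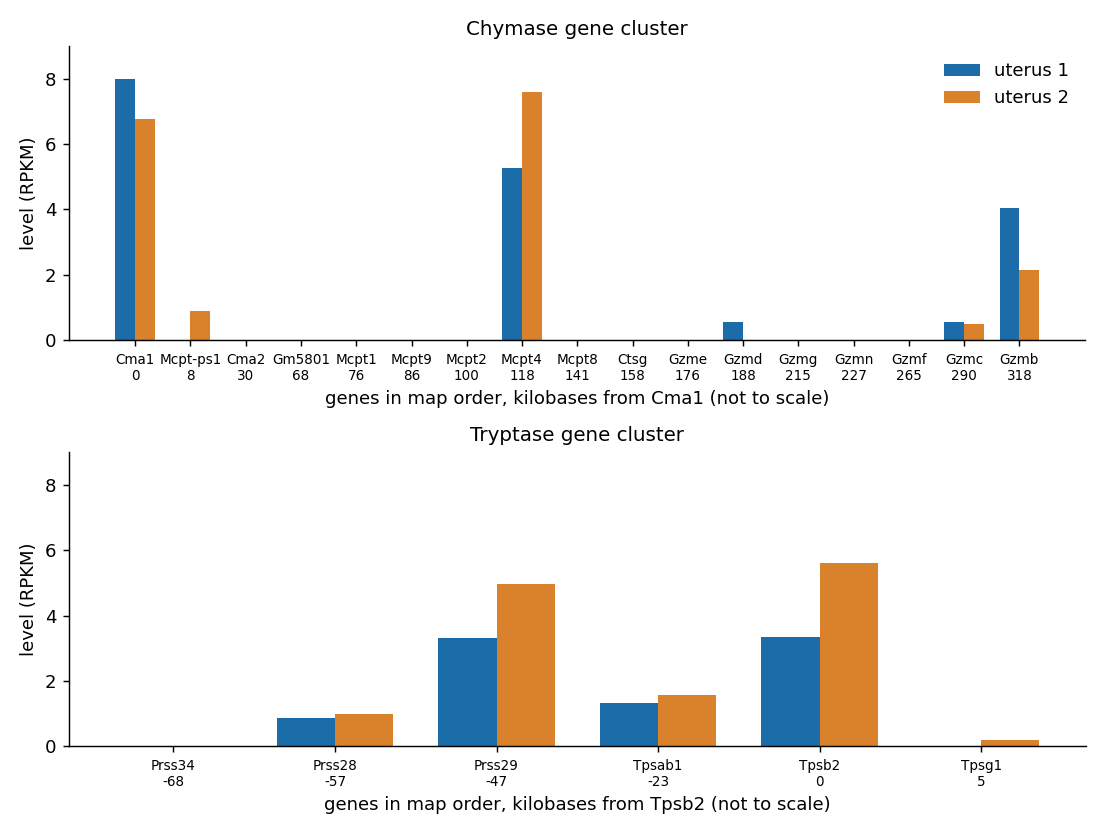
Level of each gene of the chymase and tryptase clusters (RPKM, linear axis), in map order with the distance in kilobases from Cma1 or Tpsb2 under each name. Bars are single libraries, so they carry no replicate error. Cma1 and Mcpt4 are the highest of 17 chymase cluster genes and are separated by 4 protease genes listed at 0.

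Reads that fit several near-identical genes can be lost or split in counting, so the share of each coding transcript found in no other gene's coding transcript was computed in stretches of 50 bases. All such stretches were unique for Hdc, Cpa3, Tpsb2, Cma1, Ms4a2, Hnmt and the 3 receptors, and 93.8% for Mcpt4, which shares 58 stretches with Cma2. Mcpt1, Mcpt2, Mcpt8 and Ctsg were also fully unique, although listed at 0. Cma2 was 53.5% unique and Mcpt9 81.2%, and these 2 share 367 stretches. For comparison, Rpl26 was 64.6% unique and Hba-a1 32.5%. Pseudogenes and other genomic copies outside coding transcripts were not compared.

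The tryptase cluster covers 76.0 kilobases of chromosome 17 (25435339 to 25511387). Tpsb2 was its highest gene in both uteri. In uterus 1 its lead over Prss29, a gene outside the lists, was small (3.356 against 3.313 RPKM, on 14 and 15 reads) and was not tested. Tpsab1, the neighbouring tryptase also called mast cell protease 7, lay at 1.31 and 1.58 RPKM on 6 and 8 reads. The ratio of Hdc to it was 109.8 in uterus 1 (50.3 to 299.7) and 101.7 in uterus 2 (51.5 to 235.9). The transmembrane tryptase Tpsg1 was listed at 0 in uterus 1 and had 1 read in uterus 2. Of the 11 granule proteases, 5 were detected (45.5%, beside 58.4% of all genes) and 5 were listed at 0 in both uteri.

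The promoters of 9 of the 10 genes, all but Tpsb2, were found in RefSeq (build GRCm38.p6), as the 250 bases before each annotated start. Motifs were searched on both strands. AGATAA is a site of GATA factors, and other forms of the site were not searched. The windows of Hdc (TGATAG), Mcpt4 (TGATAA) and Cma1 (AGATAG, opposite strand) hold the letters GATA with other bases around them. TATAAA is the core of the TATA box. AGAACA is the half-site bound by progesterone and glucocorticoid receptors. No match overlapped another. AGATAA occurs in 9.99% of 32851 such windows of all genes, TATAAA in 12.4% and AGAACA in 16.1%. The 4 windows below are shown because they hold different matches in genes of high (Hdc), middle (Cpa3, Mcpt4) and near-zero (Ms4a2) level. They run 5′ to 3′ along the gene, with matches on either strand in capitals.
Hdc: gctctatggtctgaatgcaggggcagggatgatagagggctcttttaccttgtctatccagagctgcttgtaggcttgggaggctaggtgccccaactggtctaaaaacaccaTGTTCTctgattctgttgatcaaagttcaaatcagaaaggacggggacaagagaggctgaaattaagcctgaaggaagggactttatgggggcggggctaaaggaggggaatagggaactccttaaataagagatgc
Cpa3: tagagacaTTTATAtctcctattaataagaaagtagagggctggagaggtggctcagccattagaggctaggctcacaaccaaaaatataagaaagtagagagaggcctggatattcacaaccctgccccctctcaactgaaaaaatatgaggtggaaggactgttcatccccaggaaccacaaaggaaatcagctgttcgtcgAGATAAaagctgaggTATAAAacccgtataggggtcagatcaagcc
Mcpt4: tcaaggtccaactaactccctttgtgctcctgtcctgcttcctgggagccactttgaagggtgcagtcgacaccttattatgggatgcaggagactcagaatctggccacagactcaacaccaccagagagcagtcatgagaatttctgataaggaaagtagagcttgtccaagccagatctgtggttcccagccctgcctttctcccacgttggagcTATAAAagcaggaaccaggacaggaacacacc
Ms4a2: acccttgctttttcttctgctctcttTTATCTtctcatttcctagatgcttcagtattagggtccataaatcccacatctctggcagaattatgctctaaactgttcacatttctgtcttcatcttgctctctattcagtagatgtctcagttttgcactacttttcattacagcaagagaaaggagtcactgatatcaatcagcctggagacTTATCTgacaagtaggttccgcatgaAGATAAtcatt

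The Hdc window (chr2:126618679-126618928, minus strand) holds 1 match, the half-site read as TGTTCT on the gene's strand 137 bases before the start, and neither of the other motifs. The Cpa3 window (chr3:20242182-20242431, minus strand) holds AGATAA 46 bases and TATAAA 31 bases before the start, and a second TATA match on the opposite strand. In the Mcpt4 window (chr14:56062311-56062560, minus strand) TATAAA stands 32 bases before the start. The Ms4a2 window (chr19:11623720-11623969, minus strand) holds 3 AGATAA matches, the most among the windows of these 9 genes. The single windows of Cma1, Hnmt and Hrh3 and both of Hrh2 hold no match, and of the 4 alternative starts of Hrh1, 1 holds AGATAA and 1 holds AGAACA. A match is a run of letters and not evidence of binding. Only these exact strings were searched, so the lack of a match does not mean the lack of a site.

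Finally, the 2 uteri were compared gene by gene. A two-sided exact binomial test on the recovered reads, with Benjamini-Hochberg adjustment over 15162 genes, called 748 genes (4.93%) different between these 2 libraries, of which 339 (2.24% of those tested) were higher in uterus 2. It compares the libraries and not conditions. Of the 10 genes, 8 had enough reads to be tested and none was called, a count near the background for so few genes. Hdc had a log2 ratio of uterus 2 to uterus 1 of 0.15, and the exact binomial test gave an adjusted p of 0.0755 (unadjusted 0.0044). The log2 ratios of the proteases, computed after adding 0.1 RPKM and so understated for low genes, were 0.73 for Tpsb2, 0.52 for Mcpt4, 0.39 for Cpa3 and -0.24 for Cma1. For comparison, the log2 ratios of 13647 genes whose mean reached 1 RPKM had a median of 0.00067 and an SD of 0.44.

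Summed over the 4 proteases, 95 and 130 reads gave a ratio of uterus 2 to uterus 1 of 1.23 after scaling, with an interval from 0.938 to 1.62 that includes 1. Among the other genes of the histamine list, the exact binomial test called Maob (log2 ratio 0.29, adjusted p 0.00059) and Hal (log2 ratio 2.53, adjusted p 0.0016), both higher in uterus 2. Hal loses its call with the smallest reads compatible with its deposited values, 1 and 12 (adjusted p 0.0818 in the exact binomial test). Of the mast cell growth list it called Tal1, lower in uterus 2 at 1.24 against 2.82 RPKM (adjusted p 0.0314). Mrgprb1 missed the threshold with an adjusted p of 0.0562 in the same exact test. None of the 8 tested mast cell markers was called, where 4.93% of all genes were, so this count is near the background.

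**Figure D5:**
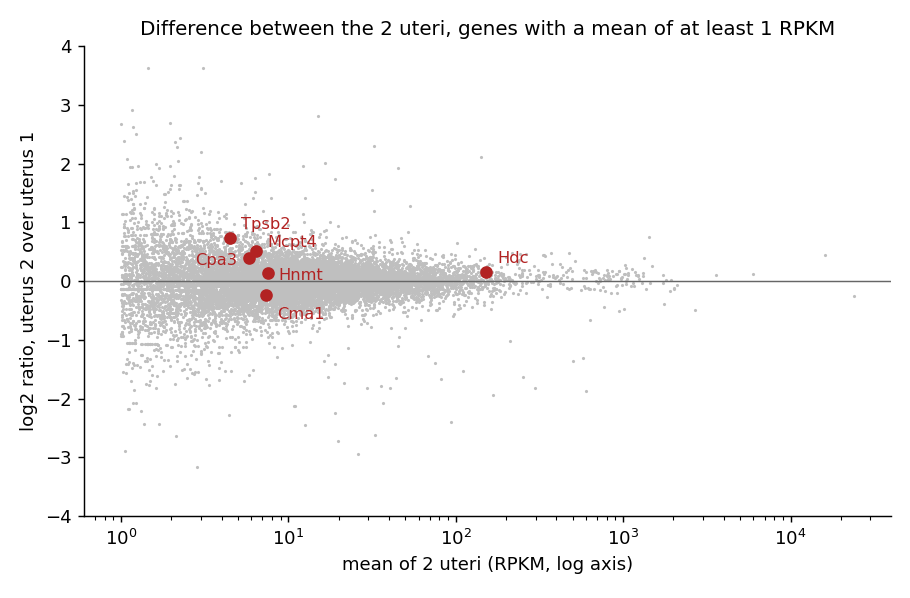
Log2 ratio of uterus 2 over uterus 1 against mean level (RPKM, log axis) for 13647 genes whose mean reached 1 RPKM. Grey points are genes, of which 24 lie outside the plotted range, and red points are the 6 detected members. Hdc lies at 0.15 and the 4 proteases between -0.24 and 0.73. The central 95% of the log2 ratios of these genes runs from -0.7654 to 0.7327, and Tpsb2 at 0.7256 lies just inside its upper bound. The spread among genes of like level was not computed.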

How the data were processed

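Poly-A RNA was sequenced from 2 whole uteri (TRIzol, TruSeq kit, HiSeq2500, per the labels' protocols and the series' design text). The authors deposited RPKM, per the labels. TopHat, edgeR and build mm9 are named, without role, in the submitters' processing notes; which program counted reads, on which annotation and whether by strand is not given in the sources used here. Deposited starts were read as counted from 0, because 12380 of 21203 matched genes had a GENCODE M1 (NCBIM37, the same assembly as mm9) start 1 base later and 781 at the deposited base.

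Reads were recovered from the RPKM. In single-exon genes the value of 1 read gave scaling totals of 3834174 and 4256101, and 95.6% of 413 and 94.5% of 438 other single-exon values under 100 reads were whole within 0.0001. For the 17426 genes above 0, reads are the whole numbers that match the ratio of both libraries and give a whole transcript length. A remaining common factor was chosen by closeness to an annotated length, so reads of single genes can be off by it. The method was tested on simulated data, which cannot show whether the annotated lengths match those the authors used.

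Tests used scipy 1.17.1: a two-sided exact binomial test per gene with at least 6 reads in sum, with Benjamini-Hochberg adjustment (threshold 0.05), Poisson intervals for levels and Clopper-Pearson intervals for ratios. Promoter matches came from RefSeq, and the 50-base stretches from GENCODE M1 coding transcripts. The table uses the older symbols Abp1 (Aoc1), Adc (Azin2), Irg1 (Acod1), Emr1 (Adgre1) and Siglec5 (Siglecf), and Ly6g was not analysed here. Named genes are the 10 members, members of the fixed lists and the 3 genes next above and next below Hdc in level. Other genes of the 2 protease clusters, the motifs, and Rpl26 and the globin genes (named for their listed 0) were chosen after values were seen. With 2 libraries in 1 group no likeness of pattern was computed. The members and lists were chosen with earlier results of these data known.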

Additional observations from a re-analysis of the deposited data

How the results depend on the processing

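Over 172 alternatives to 45 results, 136 values stayed within the spread or limit set for them and 36 moved (24 of them on the TPM scale). The 136 include alternatives that left out a library. Each log2 ratio kept its sign, while levels, medians and counts have no direction to change. On the TPM scale, which multiplies every gene of a library alike, Hdc lay at 360.4 and the median of the mast cell markers at 7.01. Leaving out genes listed at 0 in either uterus put that median at 4.49 RPKM. Dividing the smallest reads compatible with the deposited values by the annotated length put Hdc at 70.7 times Tpsb2 and 48.2 times Mcpt4. There the factor 2 in their reads is dropped while the length is kept, so these values are not ratios of the deposited levels. In the same setting, Hdc over Cpa3 and over Cma1 stayed within 1 SD. The median of the 4 proteases in place of their sum, a smaller quantity by construction, put Hdc at 26.0 times it. The 6 detected members were also 6 at 0.5 RPKM, at 2 RPKM, on the TPM scale and in either library alone. The exact binomial test called 581 genes with the smallest possible reads, 745 with the share taken from the median ratio and 706 with no minimum of reads, and none of the 10 members in any of them; the adjusted p of Hdc ran from 0.0731 to 0.0886. Hal had an adjusted p of 0.0818 with the smallest possible reads and lost its call, while Maob and Tal1 stayed past the threshold in all 3. Means of 2 libraries lie within 1 SD of either by construction, so leaving out a library says nothing about stability. No paired analysis was possible because only 1 group exists. Depth limits the receptors, Ms4a2 and Fcer1a, which hold 6 reads or fewer in each library.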

Other observations

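In the tryptase cluster, 2 genes outside the lists held levels like those of the mast cell tryptases. Prss29, known as an implantation serine proteinase of uterine glands, had 3.31 RPKM from 15 reads in uterus 1 and 4.97 RPKM from 25 reads in uterus 2. Its neighbour Prss28, of the same kind, lay at 0.877 and 0.987 RPKM on 4 and 5 reads. At the far end of the chymase cluster, Gzmb, a granzyme of cytotoxic lymphocytes, lay at 4.05 and 2.16 RPKM on 22 and 13 reads. Of the other 6 granzyme genes there, Gzme, Gzmg, Gzmn and Gzmf were listed at 0 in both uteri, Gzmd had 2 reads in uterus 1 alone, and Gzmc had 2 reads in each. These genes were chosen after their values were seen, and no difference among them was tested.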
